A study of Oikopleura dioica with 12 samples.

Results

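The ribosome-protected RNA fragments (RPFs) of control females of Oikopleura dioica were set against the total RNA of the same collections of animals, gene by gene, to describe translation without drug. Oikopleura dioica is a small planktonic tunicate, a chordate with separate sexes that lives inside a secreted filter-feeding house. The control animals were cultured females on day 6, held for 1.5 hours in seawater with the solvent DMSO, and their houses were removed. Of the 12 libraries of the series, 6 were DMSO libraries: RNA DMSO 1 to 3 and RPF DMSO 1 to 3, where a number marks a collection of animals and each library is a pool of whole animals. The other 6 came from females given 1 µM Torin 1, an inhibitor of the kinase mTOR, for the same time. A gene was kept where its reads in the 12 libraries summed to at least 100, which left 14574 of the 17212 genes in the table.

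In ribosome profiling, nuclease removes the RNA that ribosomes do not cover, so the fragments left behind mark where ribosomes sat. The ratio of RPFs to RNA, the translational efficiency (TE), describes how many ribosomes an mRNA carries for its abundance. In Oikopleura dioica many mRNAs receive a short spliced leader (SL) at their 5′ end by trans-splicing, many genes lie in operons, and the ovary of a mature female is a single giant cell that stocks mRNA in its oocytes. All ratios below are within a gene, so that its length cancels, and they are relative, since each library was scaled to its own total. A whole animal is a mixture of tissues, and fewer cells of a type and less RNA per cell cannot be told apart in it.

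The libraries of the comparison were unequal in depth. The RNA DMSO libraries held between 12684183 and 27462750 counts and RPF DMSO 1 held 22889270, whereas RPF DMSO 2 held 874562 and RPF DMSO 3 held 334447. In RPF DMSO 2, 48.2% of the genes tested had at least 10 counts, and in RPF DMSO 3 33.7% had. A count of 0 allowed up to 3.43 RPM (reads per 1000000 counts of the library) in RPF DMSO 2 and up to 8.97 RPM in RPF DMSO 3 (from 3 counts of the total, for counting error only), against at most 0.237 RPM in the RNA DMSO libraries. RPF DMSO 1 also stood apart in its profile across genes. Its Spearman correlation was 0.76 with RPF DMSO 2 and 0.78 with RPF DMSO 3, which had 0.87 with each other, and 0.95 with RNA Torin 1 replicate 3, a library of the other treatment and the other assay. Its depth was that of an RNA library. Whether it is an RPF library was not tested, and a ratio from all 6 libraries is a ratio of RPF to RNA only as far as its label holds. Results are therefore given with and without the library labelled RPF DMSO 1. RNA DMSO 2 and RNA Torin 1 replicate 2 were nearly equal (Spearman 1.00), and only the former entered the ratio. These correlations are across genes, which are not independent replicates.

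Summed levels of axoneme genes and of genes named for testis or meiosis moved with the assay and with the library. The 30 genes of the axoneme, the motile core of cilia and sperm tails, summed to 534.4, 464.8 and 133.1 RPM in RNA DMSO 1 to 3 and to 31429, 2118 and 5436 RPM in RPF DMSO 1 to 3, with every member above 0 in each of these libraries. Genes named for testis or meiosis (16 genes) summed to 55.5, 73.6 and 50.3 RPM in RNA DMSO and 6777, 225.3 and 906 RPM in RPF DMSO. In RNA Torin 1 replicate 3 the axoneme sum was 24357 RPM, against 2065 and 457.1 RPM in the other 2 RNA Torin 1 libraries. The animals were labelled and inspected as females. Which cells these RNAs came from, and their part in the results below, was not tested, and no list of oocyte markers was held.

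**Figure D1:**
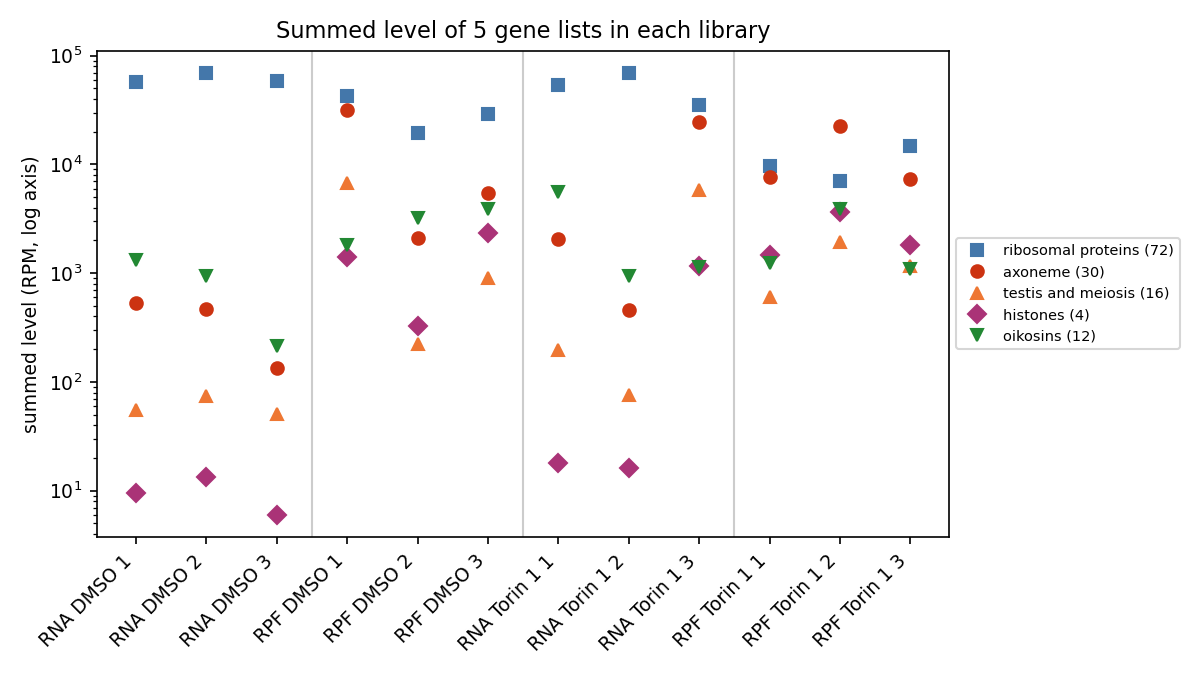
Summed level of 5 gene lists (RPM, log axis) in each of the 12 libraries, 1 point per list and library. The axoneme genes (30) lay between 133.1 and 534.4 RPM in the RNA DMSO libraries and between 2118 and 31429 RPM in the RPF DMSO libraries, while the ribosomal protein genes (72) lay between 57865 and 69544 RPM and between 19549 and 42861 RPM.

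Across all genes, 990 genes (6.79% of those tested) were higher in RPFs than in RNA and 176 (1.21%) were lower at an adjusted p under 0.05 (edgeR quasi-likelihood test, Benjamini-Hochberg over all 14574 genes). Without RPF DMSO 1, 1007 (6.91%) were higher and 1879 (12.9%) were lower. All 176 lower genes were also lower without that library, but of the 990 higher genes 560 (56.6%) were higher without it, which was 55.6% of the higher genes of that comparison, and no gene had opposite calls. With the collection of animals as a block, 1043 genes (7.16%) were higher and 310 (2.13%) lower. Genes with ratios far above the rest often had very little RNA: 25 of the 990 had 0 counts in all 3 RNA libraries and 101 had at most 3 counts over them, so that their fitted ratios depend on the prior count. Of the 14574 genes, 405 passed the filter on reads only through RPF DMSO 1, and 63 of these were among the 990.

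The number of calls depended on collection 3. Without RNA DMSO 3 edgeR called no gene in either direction (1760 were higher and 814 lower by the unadjusted p), and without RPF DMSO 3 59 were higher and 0 lower (1727 and 1106 unadjusted). With all 12 libraries in the fit, none was called (2182 and 1619 unadjusted). DESeq2 on the 6 libraries called 1202 genes (8.25%) higher and 566 (3.88%) lower. The median log2 ratio of all genes was 0.17 with the main scaling, −0.25 without RPF DMSO 1, −0.12 with library totals alone and 0.41 with upper-quartile factors, so that medians of gene groups are given below relative to that of all genes. The share of calls that were higher was 84.9% with the main scaling, 53.6% with library totals alone and 68.0% with DESeq2. Over the 4640 genes with at least 10 counts in each DMSO library, the log2 ratios of the collections had Spearman correlations of 0.29 for collections 1 and 2, 0.56 for 1 and 3 and 0.69 for 2 and 3, as a description across genes.

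**Figure D2:**
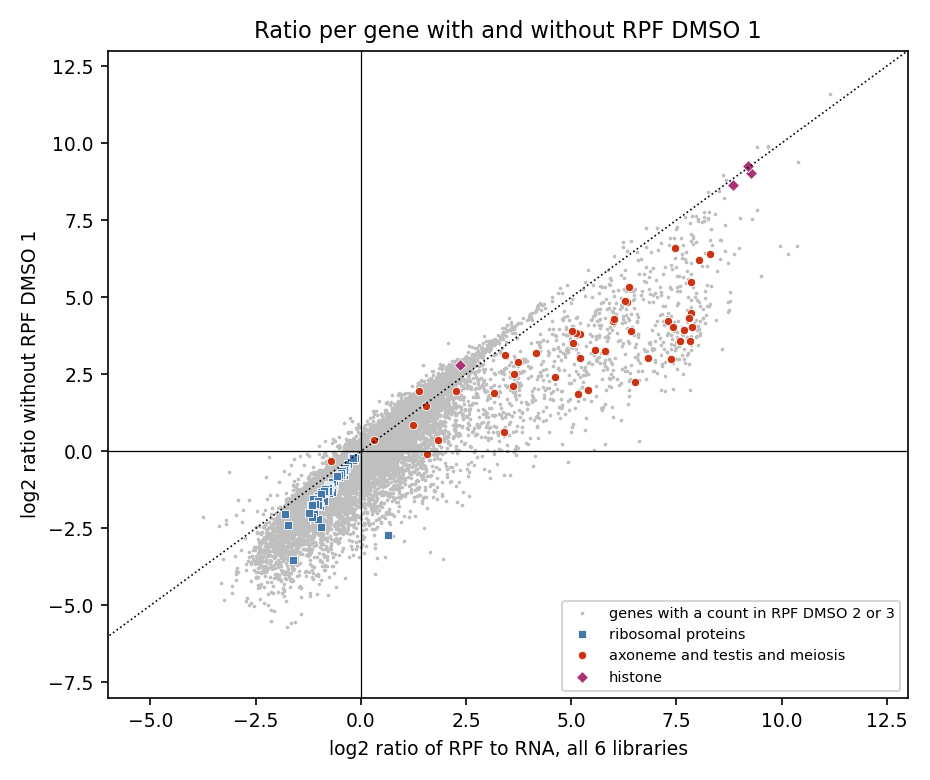
Log2 ratio of RPF to RNA per gene from all 6 DMSO libraries (x axis) and without RPF DMSO 1 (y axis), with the ribosomal protein genes, the axoneme and testis genes and the histones in colour, and the dotted line at equality. The axoneme genes had a median of 5.48 with all libraries and 3.54 without RPF DMSO 1, the histones of 9.04 and 8.84. The 1169 genes with 0 counts in both RPF DMSO 2 and RPF DMSO 3 are not drawn.

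A histone gene carried one of the widest gaps between RPFs and RNA. Histones package DNA, and in most animals their main mRNAs lack a poly(A) tail. By the study's methods, rRNA was removed from both assays, and no poly(A) selection is named. The gene described as H2A histone member x (GSOIDG00006499001, scaffold 20, 153717 to 154088, minus strand, 1 coding exon, no UTR in its model) had 0.281, 2.13 and 0.473 RPM in RNA DMSO 1 to 3 and 420.0, 112.1 and 917.9 RPM in RPF DMSO 1 to 3. Every RPF library was above every RNA library. Its log2 ratio was 9.21 (SE 1.14, adjusted p = 0.00308) and 9.25 (SE 1.03, adjusted p = 0.00106) without RPF DMSO 1.

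The other histones followed in part. The gene described only as histone (GSOIDG00016664001, scaffold 71, 170605 to 171015, plus strand) had a log2 ratio of 9.28 (SE 1.11) and 9.03 without RPF DMSO 1. Histone h2a GSOIDG00010649001 (scaffold 34, 314106 to 314477, plus strand) had 8.86 (SE 1.12) and 8.65, and both genes were past the threshold with and without that library. The fourth, histone h2a GSOIDG00012584001 (scaffold 43), had 8.15, 6.70 and 4.88 RPM in RNA and 3.93, 53.7 and 23.9 RPM in RPFs. Its RPF DMSO 1 value was the lowest of the 6, its log2 ratio of 2.37 (SE 0.85) was not called with all libraries (adjusted p = 0.109), and without RPF DMSO 1 it was 2.82 (SE 0.54, adjusted p = 0.00629). The 4 histones summed to 9.61, 13.2 and 6.01 RPM in RNA DMSO 1 to 3, and to 17.8, 16.35 and 1172 RPM in RNA Torin 1 replicates 1 to 3. The axoneme and the testis and meiosis lists were also highest in that replicate 3 among the RNA libraries. Near-identical histone copies can share reads, and how reads with several positions were counted is not stated.

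Genes of the axoneme were higher in RPFs: 26 of 30 passed the test, all higher, beside 6.79% of all genes, and 25 did without RPF DMSO 1. Their median lay 5.31 above that of all genes, and 3.80 above without RPF DMSO 1. In 26 of the 30, every RPF library was above every RNA library, a pattern that 11.9% of all genes had. Descriptions were held only for genes in a table that the study ordered by their response to Torin 1, in which the DMSO ratio takes part, so that described genes were not drawn at random: 21.5% of the 1032 described genes tested were higher and none lower. This holds for each keyword list, here and below.

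The beta heavy chain of outer-arm dynein (GSOIDG00009218001, scaffold 3, 1626996 to 1640764, plus strand, 6 coding exons), a motor that bends cilia, had 28.6, 41.4 and 18.1 RPM in RNA DMSO and 3963, 639.2 and 1498 RPM in RPF DMSO. The groups did not overlap. Its log2 ratio was 6.37 (SE 0.84, adjusted p = 0.00386), and 5.34 (SE 0.52) without RPF DMSO 1. Coiled-coil domain containing 39 (GSOIDG00005126001), whose relative in Chlamydomonas sets the repeat length of the axoneme, had 7.31 (SE 1.40) and 4.24 (SE 0.67) without RPF DMSO 1. Growth arrest-specific 8 (GSOIDG00001282001), a subunit of the dynein regulatory complex, had 5.39 (SE 1.32) and 2.00 (SE 0.62, adjusted p = 0.0425) without it, and a dynein heavy chain (GSOIDG00013210001) 5.21 (SE 1.16) and 3.02 (SE 0.71). The axonemal dynein light chain GSOIDG00005549001 had the highest ratio of the list, 8.31 (SE 1.26), and 6.42 without RPF DMSO 1. The members not called were coiled-coil domain containing 40 with 3.40, a dynein heavy chain with 1.38, sperm flagellar protein 2 with 1.23 and a radial spoke head 1 homologue with 0.32, which had 0.62, 1.95, 0.84 and 0.36 without that library.

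Of the 16 genes named for testis or meiosis, 11 were higher and 0 lower, beside 6.79% of all genes and 21.5% of described genes, and 9 were higher without RPF DMSO 1, beside 6.91% and 19.3%. The sperm-specific sodium proton exchanger (GSOIDG00004369001, scaffold 16, 154916 to 159658, plus strand, 12 coding exons), which regulates pH in sperm tails, had 2.31, 6.70 and 1.27 RPM in RNA DMSO and 1791, 100.6 and 358.8 RPM in RPF DMSO. RPF DMSO 1 was highest, and all 3 RPF libraries were above the RNA libraries. The log2 ratio was 8.04 (SE 1.22, adjusted p = 0.00617) and 6.21 (SE 0.74) without RPF DMSO 1. Testis-specific serine kinase 1 (GSOIDG00015162001) had 7.87 (SE 1.50), which was 4.02 (SE 0.82) without that library. Meiosis-specific nuclear structural protein 1 (GSOIDG00011425001) had 7.42 (SE 1.54) and 4.04 (SE 0.90), and spermatogenesis associated 4 (GSOIDG00002753001) 5.17 (SE 1.24) and 1.86 (SE 0.56). The orthologue of spo11, which makes the DNA breaks of meiosis, was not called, with 1.83 and 0.37 without that library. The other members with no call were psmc3 interacting protein with 2.25, zonadhesin variant 6 with 1.58, a t complex testis-specific gene with 1.55 and a horma domain 2-like gene with −0.71. Without that library these had 1.95, −0.09, 1.46 and −0.31.

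**Figure D3:**
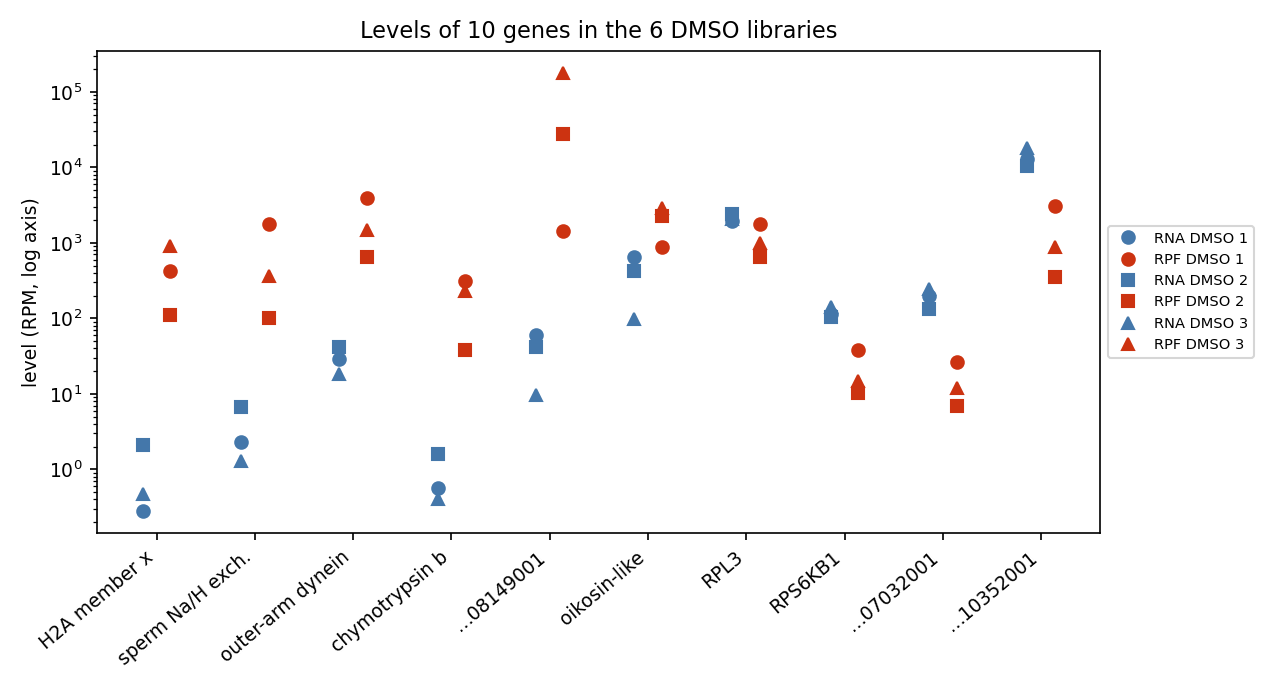
Level of 10 genes (RPM, log axis) in the 6 DMSO libraries, with RNA in blue, RPFs in red and the marker shape giving the collection. H2A histone member x had at most 2.13 RPM in RNA and at least 112.1 RPM in RPFs, RPS6KB1 was at least 105.5 RPM in RNA and at most 37.9 RPM in RPFs, and the RPF levels of GSOIDG00008149001 spanned 1451 to 179152 RPM.

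Other described genes with the largest ratios were of several kinds. Heat shock transcription factor Y-linked 2 (GSOIDG00007283001), whose human relative is expressed in testis, had 8.42 (SE 0.94) and 7.69 (SE 0.88) without RPF DMSO 1. The homologue of C11orf1 (GSOIDG00000266001) had 8.32 (SE 1.42) and 5.38 (SE 1.16) without it. A member of the tubulin-tyrosine ligase family (GSOIDG00010419001), enzymes that modify tubulin tails, had 8.05 (SE 1.72) and 3.95 (SE 0.89). These 3 genes were past the threshold with and without that library. Among ion channels, 3 of 17 (17.6%) were higher and 0 lower with and without RPF DMSO 1, beside 6.79% of all genes and 21.5% of described genes, and all 3 were hyperpolarisation-activated cyclic nucleotide-gated channels. GSOIDG00011951001 had 8.18 (SE 1.10), GSOIDG00011012001 4.40 (SE 0.94) and GSOIDG00011011001, named after its value was seen, 4.68. Without RPF DMSO 1 they had 6.45, 2.67 and 3.36. The potassium channel GSOIDG00010481001, with 1.21 (SE 0.48), and the calcium channel flower homologue GSOIDG00007934001, with 0.51 (SE 0.56), were not called, and had 0.78 and 0.82 without RPF DMSO 1.

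Digestive enzymes held 3 higher genes among 25 (12%), beside 6.79% of all genes and 21.5% of described genes, and 4 (16%) without RPF DMSO 1, beside 6.91% and 19.3%. Chymotrypsin b (GSOIDG00013136001, scaffold 50, 212802 to 214743, plus strand, 5 coding exons), a protease of the gut, had 0.562, 1.58 and 0.401 RPM in RNA DMSO and 315.1, 37.7 and 230.2 RPM in RPF DMSO. Its groups were far apart, with a log2 ratio of 8.11 (SE 0.96, adjusted p = 0.00275) and 7.45 (SE 0.82) without RPF DMSO 1. Zymogen granule membrane glycoprotein 2 (GSOIDG00006271001) had 2.49 (SE 0.63, adjusted p = 0.0364) and 2.72 (SE 0.49). Carboxypeptidase b1 (GSOIDG00004273001) had 4.03 (SE 1.19, adjusted p = 0.0623) with all libraries and 0.42 (SE 1.08) without RPF DMSO 1, where its 145.4 RPM stood against 2.29 and 8.97 RPM in the other RPF libraries. A gp2-like membrane glycoprotein (GSOIDG00002341001) had 1.13 (SE 0.62) and 0.38 without RPF DMSO 1.

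The oikosins are the proteins of the house, made by the epithelium that covers the trunk. Of 12 oikosin genes, 1 was higher with all libraries, beside 6.79% of all genes, and 6 without RPF DMSO 1, beside 6.91% of all genes and 19.3% of described genes, and none was lower. The most abundant by counts, an oikosin-like gene (GSOIDG00014788001, scaffold 60, 53065 to 61498, plus strand, 7 coding exons), had 646.5, 428.1 and 97.2 RPM in RNA DMSO and 878.5, 2263 and 2888 RPM in RPF DMSO. The lowest RPF library was above the highest RNA library. Its log2 ratio was 2.71 (SE 0.75, adjusted p = 0.0483) and 2.93 (SE 0.63, adjusted p = 0.0103) without RPF DMSO 1. Oikosin 4c (GSOIDG00008939001) had 2.56 (SE 0.72, adjusted p = 0.0538) with all libraries, adjusted p = 0.00979 with the collection as a block, and 2.78 (SE 0.61, adjusted p = 0.0113) without RPF DMSO 1, and oikosin 4a (GSOIDG00015848001) 2.01 (SE 0.68) and 2.33 (SE 0.47, adjusted p = 0.00731). Oikosin 6d (GSOIDG00008609001) had 0.98 (SE 0.71) and 0.26, and was not called.

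Muscle moves the tail, and the ratios of its genes moved with the library. Of 25 genes, 2 (8%) were higher with all libraries, beside 6.79% of all genes and 21.5% of described genes, and 3 (12%) without RPF DMSO 1, beside 6.91% and 19.3%. The median lay 1.10 above that of all genes with it and 0.25 without it. Troponin C (GSOIDG00010799001), the calcium sensor of the contractile filament, had 1.86, 6.31 and 1.46 RPM in RNA DMSO and 1093, 9.15 and 32.9 RPM in RPF DMSO. RPF DMSO 1 was far above the other libraries, and the log2 ratio was 7.15 (SE 1.62, adjusted p = 0.0222) with it and 2.78 (SE 0.88, adjusted p = 0.0453) without it. The 3 embryonic muscle myosin heavy chains with the most counts had 1.84 (GSOIDG00010986001, SE 0.92), 0.15 (GSOIDG00017172001, SE 0.86) and −0.53 (GSOIDG00016002001, SE 0.90), and without RPF DMSO 1 −0.06, −1.04 and −1.29. The same 3 genes had between 5.75 and 19.9 RPM in RNA DMSO 3 and between 31.8 and 369.3 RPM in the other 2 RNA libraries.

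Sulfotransferases, which add sulfate to sugars, had 0 of 18 called by edgeR in either direction, with or without RPF DMSO 1, and a median 0.64 above that of all genes. By the unadjusted p 2 were higher and 0 lower, and DESeq2 called 0, while without RPF DMSO 1 it called 1. Carbohydrate sulfotransferase 11 (GSOIDG00012416001) had a log2 ratio of 1.64 (SE 0.62), while galactose-3-O-sulfotransferase 3 (GSOIDG00011070001) had 1.50 (SE 0.74), galactose-3-O-sulfotransferase 1-like (GSOIDG00006531001) 0.24 (SE 0.81) and heparan sulfate 6-O-sulfotransferase (GSOIDG00011875001) −0.51 (SE 0.54). Without RPF DMSO 1 these had 1.64, 1.09, 0.61 and −0.86. Mobile elements had 4 of 14 (28.6%) higher, beside 6.79% of all genes and 21.5% of described genes, and 2 (14.3%) without RPF DMSO 1, beside 6.91% and 19.3%. Of the 4, GSOIDG00018167001, GSOIDG00007083001 and GSOIDG00000710001, named after their values were seen, had at most 0.237 RPM in any RNA DMSO library and 0 counts in RPF DMSO 2, and were not called without RPF DMSO 1. The 4 with the most counts, gypsy polyprotein GSOIDG00008751001 with 2.51 (SE 0.82), pol protein GSOIDG00004096001 with 1.48 (SE 0.91), gypsy polyprotein GSOIDG00002903001 with 0.29 (SE 1.00) and gypsy polyprotein GSOIDG00008963001 with −1.57 (SE 1.81), were not called. Copies of such elements can share reads.

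The mRNAs of the translation apparatus lay on the low side of the distribution. The study listed 88 gene models as orthologues of human TOP mRNAs, whose 5′ terminal oligopyrimidine tract in vertebrates ties their translation to mTOR, or of S6 kinases, and all 88 were tested. They were chosen by orthology. Of the 72 ribosomal protein genes, 71 had a negative log2 ratio. So had 6575 of all 14574 genes and 1721 of the 2460 genes with a mean of at least 100 RPM in RNA DMSO. The median of the ribosomal protein genes was −0.78, which was 0.95 below that of all genes (−0.95). With all 6 libraries edgeR called 0 of these 72 (0 higher and 1 lower by the unadjusted p, and 1 lower with DESeq2). Without RPF DMSO 1, 31 of 72 (43.1%) were lower, beside 12.9% of all genes. In 64 of the 72, every RPF library was below every RNA library, a pattern of 28.2% of all genes and of 52.9% of the 2460 genes with a mean of at least 100 RPM in RNA DMSO. Ribosomal protein mRNAs are abundant, and among these 2460 genes the median lay at −0.72 relative to all genes and 29.8% were lower without RPF DMSO 1. These 2460 genes were chosen by RNA values that also enter the ratio.

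Large and small subunits lay side by side, at −0.93 (46 genes) and −0.95 (26 genes) relative to all genes. RPL3 (GSOIDG00014879001, on the minus strand of scaffold 6, 158475 to 160096, with 4 coding exons) had 1969, 2397 and 2052 RPM in RNA DMSO and 1765, 652.9 and 983.7 RPM in RPF DMSO. The groups did not overlap, with RPF DMSO 1 nearest to RNA. Its log2 ratio was −0.67 (SE 0.56, adjusted p = 0.448) and −1.23 (SE 0.46, adjusted p = 0.0805) without RPF DMSO 1. RPL19 (GSOIDG00013614001) had −0.97 and −1.76 (adjusted p = 0.0250 without that library), RPLP0 (GSOIDG00012159001), the base of the ribosomal stalk, −1.11 and −1.97 (adjusted p = 0.0133) and RPL8 (GSOIDG00000668001) −1.18 and −1.73 (adjusted p = 0.0222). Of the small subunit, RPS2 (GSOIDG00000646001) had −1.23 and −2.01 (adjusted p = 0.0121), RPS3A (GSOIDG00015052001) −0.79 and −1.27, RPS6 (GSOIDG00015546001), the substrate of S6 kinases, −0.86 and −1.31, and RPS27A (GSOIDG00013615001), a fusion of ubiquitin and a ribosomal protein, −0.88 and −1.30. The last 3 were not called.

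The only positive ratio among the 72 was that of RPL7A (GSOIDG00010732001), named after its value was seen, with 21.1, 17.6 and 5.10 RPM in RNA DMSO and 43.3, 0 and 5.98 RPM in RPF DMSO. Its groups overlapped, and its log2 ratio of 0.64 (SE 1.01) turned to −2.70 (adjusted p = 0.144) without RPF DMSO 1. The ribosomal protein genes RPL10, RPL12, RPL23A, RPL27A, RPL35A, RPL36AL, RPS12 and RPS13 were also targets of qPCR. These 8 genes had log2 ratios between −0.86 and −0.40. None of the 8 was called with all libraries, and 1, RPL36AL (GSOIDG00009297001), was lower without RPF DMSO 1 (−1.32, adjusted p = 0.0440). The reference gene of that qPCR, EF1 delta (GSOIDG00003404001), had 36.7, 30.3 and 51.1 RPM in RNA and 48.5, 10.3 and 32.9 RPM in RPFs. Its groups overlapped, with a log2 ratio of −0.13 (SE 0.58) and −0.85 without RPF DMSO 1. The 65 ribosomal protein genes with a spliced leader lay at −0.94 and the 7 without one at −1.02 relative to all genes.

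Factors that act with the ribosome were less uniform. With all libraries edgeR called 0 of the 4 elongation factors, 0 of the 4 initiation factors and 0 of the 6 other TOP orthologues, of which 1, 2 and 1 were lower by the unadjusted p, and DESeq2 called 0 of them. The elongation factors EEF2 (GSOIDG00003020001), which moves the ribosome along the mRNA, and EEF1A1 (GSOIDG00006619001), which brings in aminoacyl-tRNA, had log2 ratios of 0.76 (SE 0.72) and 0.59 (SE 0.51). EEF2 had 3743, 3587 and 3207 RPM in RNA DMSO and 2412, 9394 and 2171 RPM in RPF DMSO. Only RPF DMSO 2 was above the RNA libraries. EEF1B2 (GSOIDG00014951001), the exchange factor of EEF1A1, had −1.28 (SE 0.56) and −2.28 (SE 0.50, adjusted p = 0.0111) without RPF DMSO 1, and its second copy (GSOIDG00004766001) had at most 5.75 RPM in any library and 0 counts in RPF DMSO 2 and 3. The initiation factors EIF3A (GSOIDG00001369001), EIF3E (GSOIDG00010922001), EIF3H (GSOIDG00017735001) and EIF4B (GSOIDG00000664001) had −0.66, −1.03, −1.01 and −1.14. In all 4 every RPF library was below every RNA library. That pattern held in 28.2% of all genes and 52.9% of the 2460 with a mean of at least 100 RPM in RNA DMSO. EIF3H (adjusted p = 0.0361) and EIF4B (adjusted p = 0.0219) were lower without RPF DMSO 1, beside 12.9% of all genes and 29.8% of those 2460.

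Among the other TOP orthologues, the nucleolar chaperone NPM1 (GSOIDG00000934001) had −1.45 (SE 0.53), with adjusted p = 0.114 with all libraries and 0.0482 without RPF DMSO 1. The histone chaperone NAP1L1 (GSOIDG00007830001) had −0.94, the poly(A)-binding protein PABPC1 (GSOIDG00001070001) −0.86, the ribosome-bound scaffold RACK1 (GSOIDG00007647001) −0.79 and TPT1 (GSOIDG00000824001) −0.73. In these 5 genes every RPF library was below every RNA library. That pattern held in 28.2% of all genes and 52.9% of the 2460 with a mean of at least 100 RPM in RNA DMSO. VIM (GSOIDG00012325001), an intermediate filament orthologue, had 1.08 (SE 0.60) and 0.45 without RPF DMSO 1, with overlapping groups.

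The S6 kinase RPS6KB1 was the 1 gene with a description or an orthologue that was lower in RPFs with all libraries and the same sign in every collection. This was 1 call among the 88 listed orthologues. Lower calls made up 1.21% of all genes and 4.88% of the 2460 with a mean of at least 100 RPM in RNA DMSO, to which RPS6KB1 belongs. Of the 1032 described genes, 0 were lower. RPS6KB1 (GSOIDG00000569001, scaffold 1, 1885984 to 1887707, minus strand, 10 coding exons, with a spliced leader and downstream in a predicted operon) is the kinase through which mTOR acts on ribosomal protein S6. It had 115.5, 105.5 and 141.4 RPM in RNA DMSO and 37.9, 10.3 and 15.0 RPM in RPF DMSO. The groups did not overlap. The log2 ratio was −2.20 (SE 0.56, adjusted p = 0.0369) and −3.15 (SE 0.48, adjusted p = 0.00280) without RPF DMSO 1, from 9 counts in RPF DMSO 2 and 5 in RPF DMSO 3. Of the 9 comparisons that left out a library or a collection, 2 kept the call, with log2 ratios between −3.23 and −1.78. RPS6KA1 (GSOIDG00014860001), a kinase of the MAPK pathway that also phosphorylates S6, had 0.24 (SE 0.56) and 0.47 without RPF DMSO 1.

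**Figure D4:**
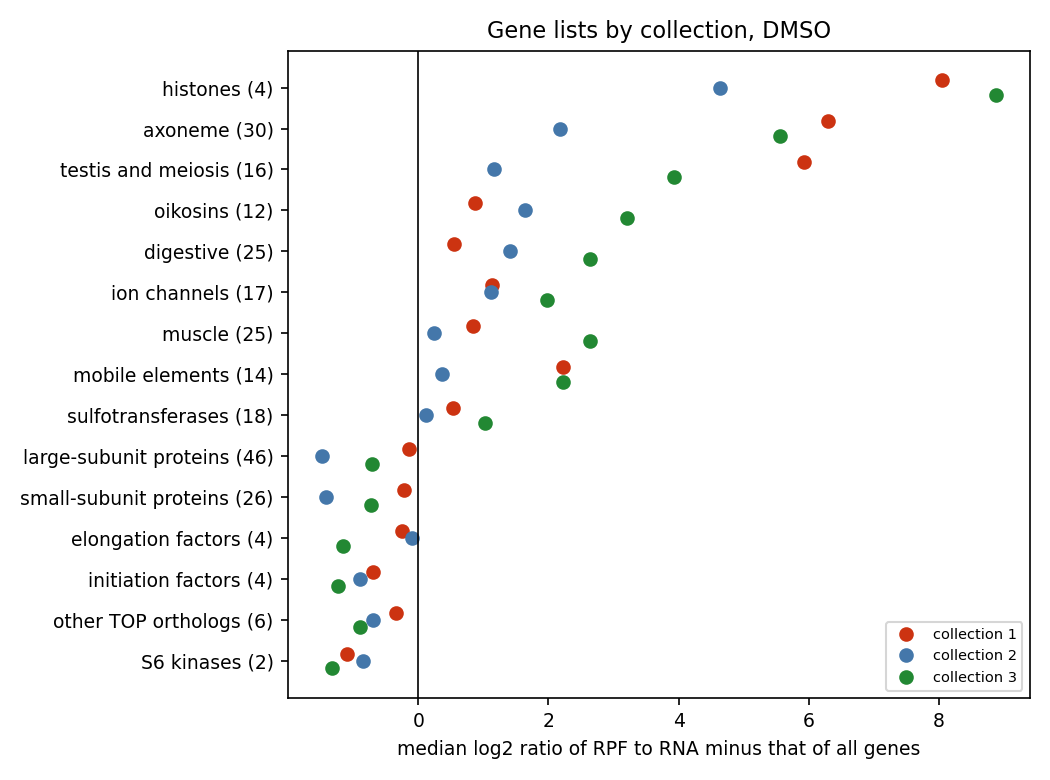
Median log2 ratio of RPF to RNA over each gene list minus that of all genes, per collection of DMSO animals (1 point per collection, number of genes in parentheses). Axoneme genes lay at 6.30, 2.17 and 5.56 in collections 1 to 3, and large-subunit proteins at −0.14, −1.48 and −0.72.

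Genes known by identifier alone held the extremes. GSOIDG00008149001 (scaffold 24, 453168 to 456493, plus strand, 6 coding exons) had 60.6, 41.2 and 9.54 RPM in RNA DMSO and 1451, 27251 and 179152 RPM in RPF DMSO, where it took 17.9% of all counts of RPF DMSO 3. Its RPF levels differed widely between the libraries and were above RNA in each. The log2 ratio was 11.15 (SE 1.91, adjusted p = 0.00892) and 11.60 (SE 1.32) without RPF DMSO 1. GSOIDG00004303001 (scaffold 15, 871653 to 872502, minus strand, 4 coding exons) had 0 counts in all 3 RNA DMSO libraries and 397, 4 and 3 counts in RPF DMSO. Its observed mean RPF level was 199-fold the floor of 3 counts over the RNA group, and 131-fold without RPF DMSO 1, from those 4 and 3 counts. This bounds the RNA side only. The levels of 4.57 RPM in RPF DMSO 2 and 8.97 RPM in RPF DMSO 3 lie near or at what a count of 0 allows there (3.43 and 8.97 RPM).

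Among the 2460 abundant genes, 10 (0.407%) were higher and 120 (4.88%) lower in RPFs with all libraries, beside 6.79% and 1.21% of all genes. Without RPF DMSO 1, 117 (4.76%) were higher and 734 (29.8%) lower, beside 6.91% and 12.9% of all genes. These genes were chosen by the RNA DMSO values that the ratio divides by, a choice that favours lower ratios. GSOIDG00007032001 (scaffold 233, 17264 to 19161, plus strand, 5 coding exons) had 198.1, 132.0 and 242.0 RPM in RNA DMSO and 26.3, 6.86 and 12.0 RPM in RPF DMSO. Its groups were well apart, with a log2 ratio of −3.33 (SE 0.60, adjusted p = 0.0107) and −4.28 (SE 0.56) without RPF DMSO 1. The latter rests on 6 counts in RPF DMSO 2 and 4 in RPF DMSO 3. GSOIDG00003133001 (scaffold 13, 138255 to 138682, plus strand, 3 coding exons with 165 coding bases in all) had 70.6, 108.2 and 136.1 RPM in RNA DMSO and 16.7, 3.43 and 2.99 RPM in RPF DMSO. Its log2 ratio was −3.26 (SE 0.68, adjusted p = 0.0169) and −4.82 (SE 0.65) without RPF DMSO 1. The latter rests on 3 counts in RPF DMSO 2 and 1 in RPF DMSO 3, levels within what a count of 0 allows there. GSOIDG00003133001 is the first gene of a predicted operon and ends 9 bp before GSOIDG00003134001 (138692 to 140452). That neighbour had a log2 ratio of 0.59 (SE 0.76) and was among the 5 genes with the largest mean share of RPF counts.

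At the other end of the abundant genes, GSOIDG00008879001 (scaffold 3, 441984 to 453935, minus strand, 3 coding exons) had 154.3, 157.0 and 111.5 RPM in RNA DMSO and 3716, 480.2 and 583.1 RPM in RPF DMSO. Its log2 ratio was 3.75 (SE 0.83, adjusted p = 0.0203) and 2.09 (SE 0.37) without RPF DMSO 1. GSOIDG00009435001 (scaffold 3, 2274953 to 2275693, minus strand, 2 coding exons) had 290.4, 351.0 and 47.6 RPM in RNA DMSO and 422.9, 2566 and 3690 RPM in RPF DMSO. In both genes every RPF library was above every RNA library, and the second had 3.61 (SE 0.92, adjusted p = 0.0368) and 3.96 (SE 0.70) without RPF DMSO 1.

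The genes that took the largest shares of counts were, for the most part, not called. GSOIDG00010389001 took the largest share of RNA, with 17062, 21086 and 18951 RPM in RNA DMSO and 5407, 18256 and 3403 RPM in RPF DMSO. Its groups overlapped through RPF DMSO 2, and its log2 ratio was −0.74 (SE 0.79). GSOIDG00003042001, GSOIDG00014312001 and GSOIDG00008454001 had 0.20, −0.37 and −0.12. GSOIDG00010352001 (scaffold 32, 187964 to 190048, plus strand, 5 coding exons) differed from these in its values, with 12802, 10336 and 18159 RPM in RNA DMSO and 3026, 347.6 and 879.1 RPM in RPF DMSO. Its groups did not overlap, and its log2 ratio was −3.07 (SE 0.86, adjusted p = 0.0509) with all libraries and −4.37 (SE 0.74, adjusted p = 0.00390) without RPF DMSO 1.

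Gene classes drawn from the annotation alone also differed in their medians. Genes in predicted operons (here, genes of the same strand no more than 60 bp apart) had lower ratios: the 1902 first genes lay at −0.56 relative to all genes and the 3377 downstream genes at −0.66, while the 9246 genes outside operons lay at 0.46. Without RPF DMSO 1 these were −0.48, −0.53 and 0.40. Genes called higher made up 3.73% of first genes, 2.96% of downstream genes and 8.72% of genes outside operons, beside 6.79% of all genes. Genes called lower made up 1.68%, 1.84% and 0.887%, beside 1.21%. Without RPF DMSO 1, 4.15%, 3.44% and 8.74% were higher, beside 6.91% of all genes. In that comparison 20.1%, 22.7% and 7.87% were lower, beside 12.9%. The order held in each collection, with downstream genes at −0.44, −0.49 and −0.69 and genes outside at 0.27, 0.22 and 0.38. Larger operons lay lower, from −0.48 in operons of 2 genes through −0.69 in those of 3 or 4 to −0.80 in those of 5 or more.

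The ratio also differed with the amount of RNA, though not in a steady order. To keep the counts used for grouping out of the ratio, genes were grouped by their level in RNA DMSO 1 and read in collections 2 and 3. RNA DMSO 1 had Spearman correlations of 0.97 with RNA DMSO 2 and 0.93 with RNA DMSO 3. The grouping therefore still went with the RNA levels that divide those ratios. Genes below 1 RPM (1131 genes) lay at 0.42 and 0.35 relative to all genes, and those from 1 to 10 RPM (4815 genes) at 0.24 and 1.06. The median of the former was itself 0 in both collections. With log2(RPM + 1), a gene undetected in an RPF library and near 0 in RNA has a ratio near 0. Levels in both classes reach below what a count of 0 allows in RPF DMSO 2 and 3 (3.43 and 8.97 RPM). Genes from 10 to 100 RPM (6218 genes) lay at −0.32 and −0.38, those from 100 to 1000 RPM (2326 genes) at −0.17 and −0.72, and the 84 genes from 1000 RPM at 0.21 and −0.52. In both collections the class from 1 to 10 RPM lay above all genes and those from 10 to 1000 RPM below. The place of the class below 1 RPM follows from its median of 0. Levels of different genes are not corrected for length here. Among genes of 10 to 100 RPM in RNA DMSO 1, operon position still went with the ratio. In collection 2, first genes (995) lay at −0.60, downstream genes (1964) at −0.64 and genes outside (3252) at 0.01. In collection 3 these were −0.72, −0.82 and 0.16. Over all 6 libraries, which include RNA DMSO 1, they were −0.73, −0.80 and −0.14.

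**Figure D5:**
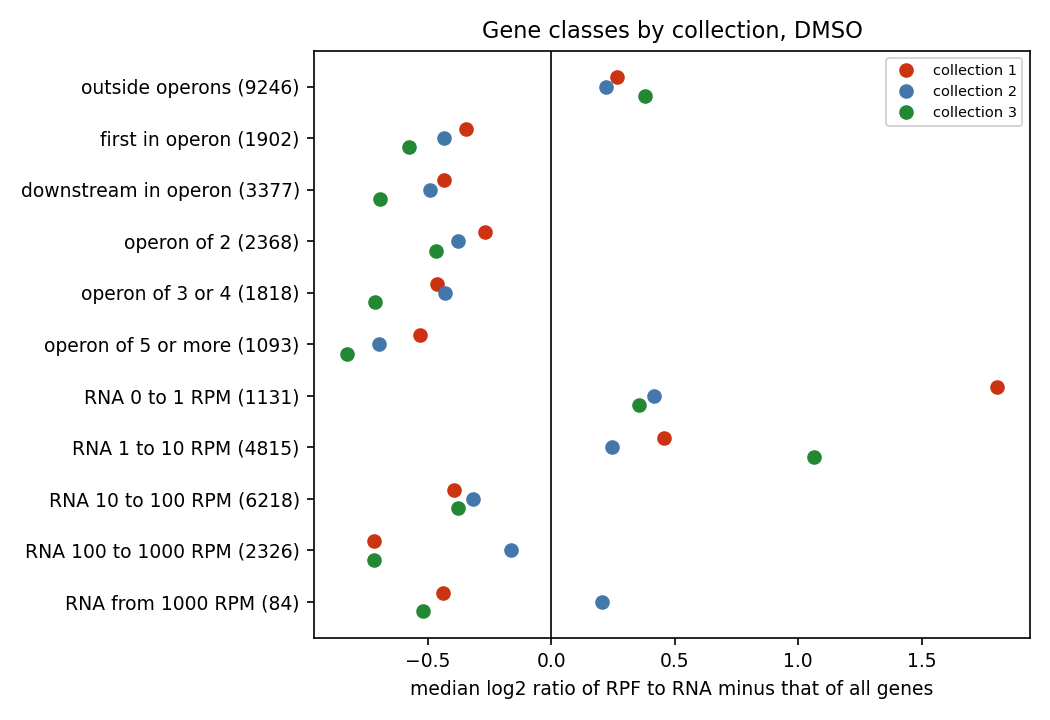
Median log2 ratio of RPF to RNA over gene classes minus that of all genes, per collection of DMSO animals (1 point per collection, number of genes in parentheses). Genes first or downstream in predicted operons lay below 0 in each collection and genes outside above 0, and classes of RNA level, set in RNA DMSO 1, are coupled to the ratio of collection 1 only.

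The structure of the gene model went with the ratio less. Single-exon genes (365) lay at 0.32 relative to all genes, genes with 6 to 10 coding exons (4880) at −0.05, and without RPF DMSO 1 single-exon genes lay at −0.38. Of the single-exon genes, 51 (14%) were called higher and 0 lower, beside 6.79% and 1.21% of all genes, and without RPF DMSO 1 42 (11.5%) were higher and 23 (6.30%) lower, beside 6.91% and 12.9%. Coding length classes lay between −0.20 (over 2400 to 5000 bases, 1166 genes) and 0.10 (over 300 to 600 bases, 2901 genes). The 3224 models without a UTR lay at 0.35, those with a UTR share over 20 to 40 percent (2627 genes) at −0.14 and those over 40 percent (1753 genes) at −0.05, and without RPF DMSO 1 these were 0.12, −0.03 and −0.16. Of the 17 classes by exons, coding length and UTR share, 6 changed sign without that library. Ribosomes sit mainly on coding sequence, whereas fragments of total RNA come from the whole mRNA, and the part of UTR reads in these ratios was not tested.

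The ratios in DMSO were set beside those of the Torin 1 animals. The ribosomal protein genes lay at −0.19, −1.44 and −0.72 in the 3 DMSO collections and at −1.58, −2.86 and −0.05 in the 3 Torin 1 collections. Axoneme genes lay at 6.30, 2.17 and 5.56 in DMSO and at 2.61, 5.31 and −0.51 in Torin 1, and genes downstream in operons at −0.44, −0.49 and −0.69 and at 0.06, −0.76 and −0.04. Torin 1 collection 3 pairs the RNA library that resembled RPF DMSO 1 with an RPF library of 91549 counts, 42.7% of them in GSOIDG00008149001, so that −0.05, −0.51 and −0.04 rest on libraries that stand apart. Without that collection, both Torin 1 values of the ribosomal protein genes lay below the 3 DMSO values. Those of the axoneme genes lay among the DMSO values, and those of the downstream genes on either side of them. RNA Torin 1 replicate 2, the divisor of Torin 1 collection 2, was nearly equal to RNA DMSO 2, and DMSO collection 1 rests on RPF DMSO 1. A difference between the treatments in these lists was not tested. In the fit of all 12 libraries, the interaction of assay and treatment was called for 0 genes in either direction by edgeR (by the unadjusted p, 30 were higher and 1093 lower), and also for 0 without RPF DMSO 1 (167 and 327 unadjusted).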

How the data were processed

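The labels give total RNA and RPFs of day 6 females. Per the labels and methods, the authors discarded rRNA and tRNA reads (Bowtie2 2.1.0), aligned what remained with TopHat2 2.0.13 and ran featureCounts on gene models. The deposited table holds raw counts per gene. Strand setting, treatment of multi-mapping reads and the flow cell of each library are not given in the sources used here. Positions (from 1), exons and operons came from the deposited annotation of 18020 gene models, whose other values (start, end) were not analysed as signal. Descriptions came from 1998 genes listed by the study.

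Genes with at least 100 reads were fitted on the 6 DMSO libraries with edgeR 4.0.16 in R 4.3.3 (TMM factors, quasi-likelihood F-test, Benjamini-Hochberg over all genes, threshold 0.05). DESeq2 1.42.0 was an alternative. The package babel of the study was not at hand. An SE is the absolute log2 ratio divided by the root of F. Ratios per collection are differences of log2(RPM + 1). The fit was tested on simulated data with 50 genes changed at each size. At log2 ratios of −6 and −3 it recovered 39 and 25, and at 3 and 6 it recovered 37 and 50, with 4 false calls. Lower genes were thus recovered less often than higher ones. Lists were described with no test. The members and lists were chosen with earlier results of these data known.

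Named were, per list, the 4 genes with the most counts (all of 6 or fewer), the 10 largest ratios per direction among called genes averaging 20 counts or more with one sign in all 3 collections (900 genes), over all genes and over described genes, with at most 2 per direction by identifier, the 5 largest shares of RPF and of RNA counts, extremes among genes of at least 100 RPM, and the qPCR genes, of which 1 is not reported here. By the study's methods, both assays of one number used one collection. Their deviations from the group means correlated at 0.01, −0.10 and −0.08 across genes. The main fit has no block, so its p-values measure the spread between the libraries of an assay and do not use the pairing by collection. The fit with the collection as a block does use it.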

Additional observations from a re-analysis of the deposited data

How the results depend on the processing

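The calls rest on few and shallow RPF libraries, and without RNA DMSO 3, or without both libraries of collection 3, there were none. In the shallow RPF DMSO 2 and 3, genes below the level that a count of 0 allows were not detectable. The number of genes higher in RPFs ranged from 0 to 1309 when a library or a collection was left out, and that of lower genes from 0 to 1879. It was 161 and 9 with at least 10 counts in each library, 0 and 0 with all 12 libraries in the fit, and with DESeq2 566 were lower. Lower genes numbered 624 with library totals alone, 85 with upper-quartile factors and 340 with RPFs thinned to the median depth. With the replicate block, 310 were lower, and the block changed the call of 1 of the 85 named genes, oikosin 4c, and the sign of 3 that were not called. Chosen after seeing the data, fits without RPF DMSO 1 gave 737 lower with the replicate block, 416 higher and 773 lower with 10 counts in each other library, and 1658 higher and 2092 lower with DESeq2. The causes were not tested. Of 85 named genes, DESeq2 gave no adjusted p in 6 fits.

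Medians of the gene lists and operon classes relative to all genes kept their sign in every fit except for 2 lists. With at least 10 counts in each library, elongation factors moved to 0.53 and S6 kinases to 0.10, and with RPF DMSO 1 also left out to 0.65 and 0.37, where fewer genes were tested. Without RPF DMSO 1, mobile elements were at 0.70 with DESeq2, oikosins at 3.23 with the block and other TOP orthologues at −1.28 with the count minimum. Measured per collection, other TOP orthologues lay at −0.65 and genes outside operons at 0.29. With no count filter, first genes lay at −0.69 and genes outside at 0.35, and with a gap of 30 bp genes outside lay at 0.24. Leaving out libraries, medians ranged from −0.70 to −0.41 for first genes, −0.79 to −0.48 for downstream genes, 0.27 to 0.62 for genes outside, 0.58 to 2.73 for mobile elements, −1.37 to −0.81 for initiation factors and −1.37 to −0.85 for S6 kinases.

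Reversals among named genes were all of ratios that were not called with all libraries. With library totals alone, GSOIDG00014860001 (RPS6KA1) had −0.065, GSOIDG00002903001 −0.15, GSOIDG00017172001 −0.18, GSOIDG00006531001 −0.070 and GSOIDG00003042001 −0.13. With upper-quartile factors, GSOIDG00008454001 had 0.13 and GSOIDG00003404001 (EF1 delta) 0.16. With the replicate block, GSOIDG00008963001 had 1.84, GSOIDG00006531001 −0.17 and GSOIDG00003042001 −0.33, and without RPF DMSO 1 as well, GSOIDG00008963001 had 5.22, GSOIDG00004096001 −1.12, GSOIDG00016002001 0.29, GSOIDG00008454001 0.052 and GSOIDG00003042001 −0.0029. With DESeq2 and no RPF DMSO 1, GSOIDG00004096001 had −1.42, GSOIDG00017172001 −0.90 and GSOIDG00008454001 0.18. With 10 counts in each other library and no RPF DMSO 1, GSOIDG00010986001 had −0.23 and GSOIDG00017172001 −1.20. Leaving out libraries, the ranges were −0.44 to 0.47 for GSOIDG00014860001, −0.43 to 1.15 for GSOIDG00003020001 (EEF2), −1.53 to 2.00 for GSOIDG00004096001, −0.69 to 2.30 for GSOIDG00002903001, −2.52 to 5.19 for GSOIDG00008963001, −0.059 to 2.72 for GSOIDG00010986001, −1.04 to 0.85 for GSOIDG00017172001, −1.29 to 0.13 for GSOIDG00016002001, −1.45 to 1.00 for GSOIDG00006531001, −0.83 to 0.27 for GSOIDG00008454001, −0.38 to 0.91 for GSOIDG00003134001, −1.13 to 0.68 for GSOIDG00003042001 and −0.94 to 0.27 for GSOIDG00003404001.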
